A study of Caenorhabditis elegans with 4 samples.

Results

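NHR-23 is a nuclear hormone receptor of Caenorhabditis elegans, related to the vertebrate ROR receptors, and is required for the larval moults, when the epidermis replaces the cuticle. Like other nuclear hormone receptors it binds DNA through a zinc finger domain and acts on the transcription of nearby genes. Chromatin immunoprecipitation with sequencing (ChIP-seq) recovers DNA crosslinked to such a factor, and a peak is a region that the authors' caller listed for the immunoprecipitate. Weak peaks are a known difficulty of the method, because a factor's fainter contacts and background from accessible chromatin both give low enrichment. The autosomes of this worm have gene-rich, conserved central regions and arms that recombine more and hold more repeats, so position along a chromosome is a common way to describe where a factor is found.

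The regions described here are those that both replicates listed but that the authors' combined list left out. A member is a nuclear peak of replicate 1 that overlapped a replicate 2 peak by at least 1 bp and overlapped no combined peak, with repeated coordinates counted once. Of 29963 distinct nuclear regions in replicate 1, 9685 (32.3%) met this rule. Another 7004 were in replicate 2 and in the combined list, 13206 were in neither, and 68 were in the combined list without a replicate 2 partner and were left out of the comparisons. The members were thus chosen by the presence or absence of peaks in the 3 lists, so overlap, score and peak number are given below as descriptions without a test. The members were 42.3% of the 22891 replicate 1 regions outside the combined list. As a background, windows of 384 bp placed at every position that touched no combined peak overlapped a replicate 2 peak in 12.7% of cases.

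The series holds 4 samples of hermaphrodite L3 larvae grown at 20 °C, 2 ChIP and 2 Input, and peak lists of the 2 ChIP samples and 1 combined list were used. All samples came from strain OP43, which carries the unc-119(ed3) mutation and the transgene wgIs43. The transgene encodes NHR-23 with TY1, EGFP and FLAG tags, together with unc-119. The worms were crosslinked with 2% formaldehyde and NHR-23::GFP was recovered with antibodies to GFP. The transgene was introduced by bombardment into unc-119 mutants, and no other allele of nhr-23 is named in the genotype. Chromatin came from whole animals, so a peak cannot be assigned to a cell type. The labels do not say whether the replicates were separate cultures, and Input was not analysed here. Read depth is unknown, so absence from a list does not show absence of binding. Positions are on WormBase build WS220. No genome or gene annotation of that build was used, so neither sequences nor genes are given for the regions.

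The members were spread over most of the replicate 1 ranking, from number 877 to number 29998. The authors number the peaks of each list from 1, and a low number went with a high score (Spearman rho -0.998 in the replicate 1 list and -0.947 in that of replicate 2). The median member was number 14778 in replicate 1 (interquartile range 9490 to 21561). In replicate 2 the best-overlapping partners had a median number of 13698 (9405 to 18956). Replicate 1 regions in the combined list and replicate 2 had a median number of 3750, and those in neither list 20245. Among the first 1000 peak numbers of replicate 1 the members were 0.102% of the regions. Their share rose to 51.2% among numbers 8001 to 9000 and was 25.5% among the last 1000.

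**Figure D1:**
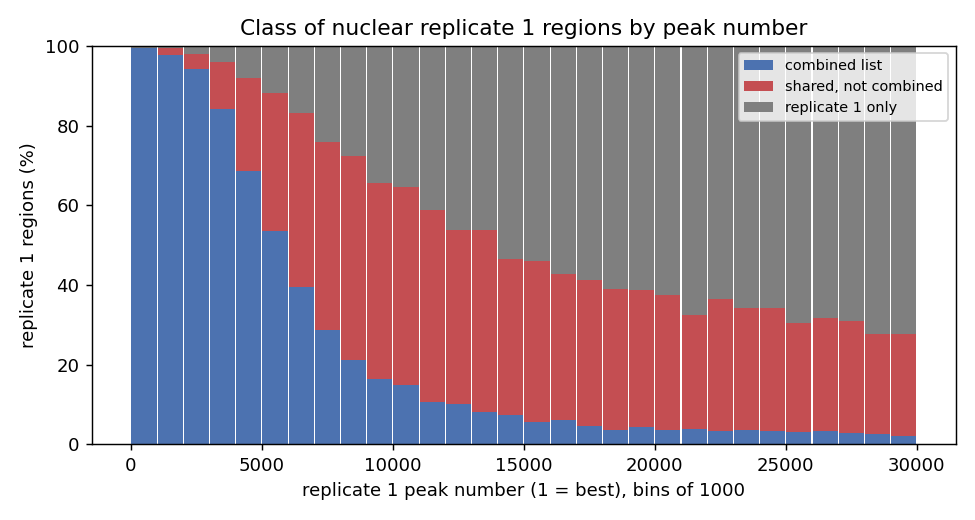
Share of nuclear replicate 1 regions (y axis, %) in the combined list, shared with replicate 2 but not combined, or in replicate 1 only, in bins of 1000 peak numbers (x axis, 1 is best). The shared, uncombined regions are almost missing from the first bin (0.102%) and reach 51.2% in the bin from 8001 to 9000.

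The replicates ordered the members only loosely alike. Across the 9685 members, the peak numbers of the replicates had a Spearman rho of 0.15, against 0.548 across the 7004 regions also in the combined list. The rule left few members with low numbers in both replicates, 97 of 4180 regions with both at most 6000. The 2 rho values thus cover unlike ranges of peak number, and their difference cannot be read as a trait of the members. These regions also come from the same 2 libraries, so the values are descriptive. The replicate 1 score, whose scale is not stated, ranged from 0.0925 to a ceiling of 3.99 among the members, with a median of 0.689. The replicate 2 score ranged from 0.58 to a ceiling of 4.37, with a median of 3. The ceiling was reached by 354 members (3.66%) in replicate 1, by 3819 (39.4%) in replicate 2 and by 184 (1.9%) in both.

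Most members met their partner over much of their length. Nearly all, 9683 of 9685, were 384 bp wide. The median overlap with the best partner was 250 bp (interquartile range 145 to 321 bp). The median distance between the centres of the pair was 123 bp (53 to 229 bp). A single replicate 2 partner was found for 7991 members (82.5%), 2 partners for 1591 and 3 or more for 103. In 71 members every replicate 2 partner itself overlapped a combined peak. At the edge of the rule, 118 members had an overlap of 1 to 10 bp and 129 regions of replicate 1 missed a replicate 2 peak by 0 to 10 bp. The shortest overlap was 1 bp, found in 8 members. An example was the region on chromosome I from 2896364 to 2896747, number 14999 in replicate 1 and 13032 in replicate 2. Just outside stood a region on chromosome III from 11627736 to 11628119 (number 6324), which ended directly beside a replicate 2 peak. At the other edge, 15 members lay within 10 bp of a combined peak, and 13 shared regions were left out for a combined overlap of 1 to 10 bp.

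A few members ranked high in both replicates. Of 1394 replicate 1 regions whose own number and partner's number were both at most 2000, 8 (0.574%) were members. For a limit of 3000 there were 22 members of 2140 regions (1.03%), and for a limit of 6000, 97 of 4180 (2.32%). The 10 best by the worse of the 2 numbers were at the score ceiling in both replicates. The first lay on X from 5953088 to 5953471, number 877 in replicate 1 and 967 in replicate 2, with the nearest combined peak 3631 bp away. The second lay on chromosome I from 8224310 to 8224693 (numbers 1003 and 1155), 1062 bp from a combined peak. The third, also on chromosome I, from 5244090 to 5244473 (numbers 1265 and 1016), was 17209 bp away from one.

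Chromosome IV held 4 of these 10, and 15% of all members. They ran from 5731572 to 5731955 (numbers 1381 and 1229), from 9647803 to 9648186 (1395 and 1203), from 8379308 to 8379691 (1210 and 1683) and from 9146960 to 9147343 (1764 and 1322). Their gaps to the nearest combined peak were 15087, 14458, 3682 and 25088 bp. A region near the left end of chromosome V, from 1743489 to 1743872 (numbers 1345 and 1161), was 27867 bp from any combined peak. The list closed with a region on X from 14015680 to 14016063 (numbers 2093 and 2000) and one on chromosome I from 8511270 to 8511653 (numbers 2078 and 2134). Replicate centres at these 10 regions lay 6.5 to 81.5 bp apart, closer than the median over all members. Their overlaps with the partner were mixed against the members' median of 250 bp. Those of 158, 117, 171, 96, 92 and 141 bp were below it, and the rest, 340 to 362 bp, above it. All 10 lay more than 1 kb from the combined list, and of all members 27.6% lay within that distance.

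The members were spread over all 6 nuclear chromosomes, at 96.6 per Mb. Combined peaks had 61.3 per Mb and regions of replicate 1 only 132. Some members overlap one another, so their density counts regions and not separate places. Chromosome III was the most densely covered, with 129 members per Mb, followed by chromosomes I and II with 109 each. X held 91.6 per Mb, chromosome IV 83.1 and chromosome V 73. Chromosome III was also the densest, and V the least dense, in the combined list and among the regions of replicate 1 only. Counts per chromosome were compared with Fisher's exact tests, two-sided, adjusted by Benjamini-Hochberg over 12 tests. Peaks lie in clusters and are not independent, so these p-values, and all others given here, may be too small.

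X was the 1 chromosome whose share of members passed against the combined list. It held 1623 members, 16.8% of the total (exact 95% interval 16 to 17.5), against 20% (19 to 21) of the combined peaks (Fisher's exact test, adjusted p = 2.98e-06). There were 1.32 members for each combined peak on X, and 1.57 to 1.7 on the autosomes. The shares on chromosomes I to V did not pass against the combined list, with adjusted p-values of 0.11, 0.624, 0.11, 0.538 and 0.982 in Fisher's exact tests. Against regions of replicate 1 only, the share on X was slightly higher, 16.8% against 15.4% (14.8 to 16; Fisher's exact test, adjusted p = 0.0331). That difference reversed to -0.448 percentage points (unadjusted exact p = 0.428) when replicate 2 gave the coordinates, and was 0.849 points (exact p = 0.336) among the better-numbered 50% of each list. The deficit against the combined list kept its direction in all 9 alternatives, at -4.04 to -2.01 percentage points, with unadjusted exact p-values of 0.0126 or less.

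Along the autosomes the members lay nearer in their spread to the combined list than to the unshared regions of replicate 1. The chromosomes were cut into 3 equal parts, of which the central one held 3331 of 8062 autosomal members, 41.3% (exact interval 40.2 to 42.4). The combined list had 43.7% there (42.3 to 45.1) and the regions of replicate 1 only 28.9% (28 to 29.7). An even spread would give 33.3%. The members thus lay above an even spread and the unshared regions below it. These classes were divided by overlap with replicate 2, whose peaks also covered more of the autosomal centres, as given below. The difference from the unshared regions was 12.4 percentage points (Fisher's exact test, p = 1.14e-71). That from the combined list was -2.34 points (exact p = 0.00927) and turned to 2.15 points (exact p = 0.0932) among the better-numbered 50% of each list. In density, the members had 121 per Mb in the centre and 86 in the outer parts, a ratio of 1.41. The ratio was 1.55 for combined peaks and 0.812 for regions of replicate 1 only.

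**Figure D2:**
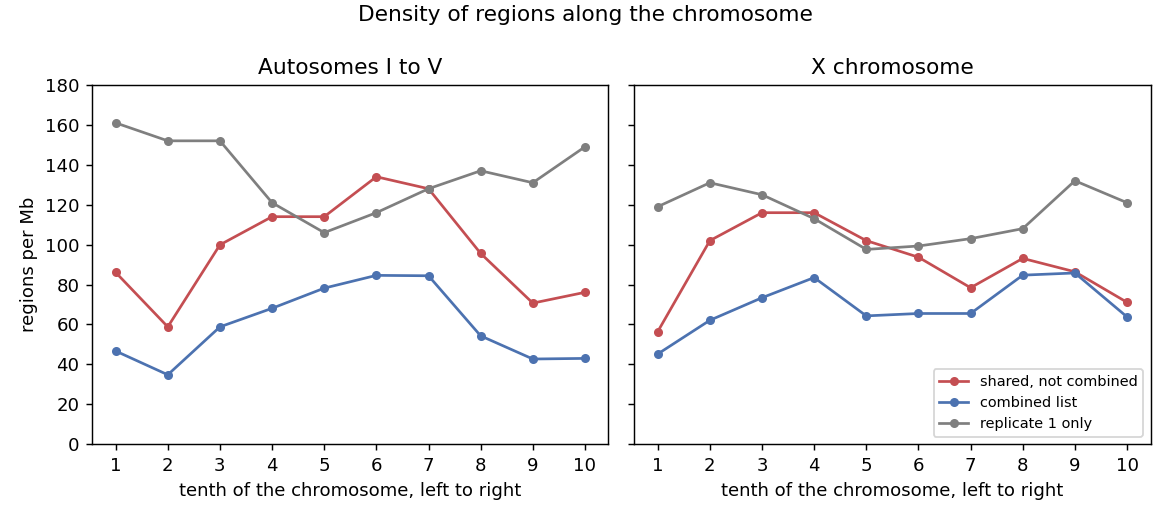
Regions per Mb (y axis) in 10 equal parts of the chromosome from left to right (x axis), for the autosomes together and for X, in the 3 classes. On the autosomes the shared, uncombined regions peak at 134 per Mb in part 6, where combined peaks are also densest (84.6), while regions of replicate 1 only are highest at the left end (161).

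The central excess was found on every autosome, and its size varied. The members' central share was 40.5% on chromosome I, 42.6% on II, 37.2% on III, 39.5% on IV and 47.4% on V. The unshared regions stayed between 28.6% and 29.4% on these chromosomes. The members were above them by 8.21 points on chromosome III and by 18.7 points on V, the ends of the autosomal range. All 5 autosomes passed in Fisher's exact tests, with the largest adjusted p, 3.12e-08, on chromosome III. These tests cannot separate a trait of the members from the denser replicate 2 coverage of the centres, described below. No single autosome passed against the combined list, where the smallest adjusted p was 0.0803, on chromosome III.

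**Figure D3:**
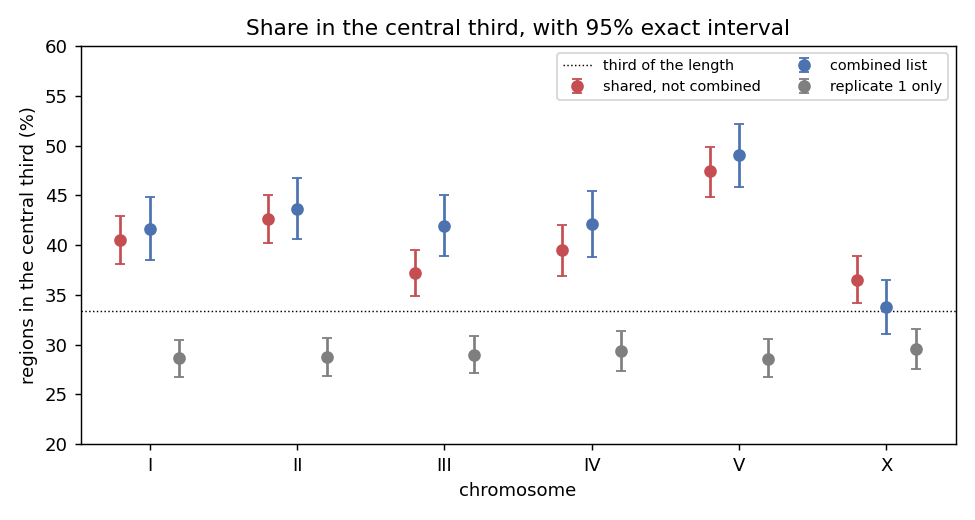
Share of regions in the central part of each chromosome (y axis, %; points with exact 95% intervals) for the 3 classes, with a dotted line at an even spread. The shared, uncombined regions lie between 36.5% on X and 47.4% on chromosome V, and the regions of replicate 1 only between 28.6% and 29.6%.

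The contrast with unshared regions depended on the replicate they came from. With the roles of the replicates exchanged, 9620 regions of replicate 2 were shared and uncombined, and 41.8% of the autosomal ones were central (40.7 to 42.8). The 8635 regions found in replicate 2 only had 39.6% in the centre (38.5 to 40.8). The difference was 2.11 points (Fisher's exact test, p = 0.00853), against 12.4 points in replicate 1. The central share of regions in replicate 2 only was itself above that of regions in replicate 1 only, 39.6% against 28.9% (Fisher's exact test, p = 4.33e-51).

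Replicate 2 coverage moved with the sharing. The portion of the 384 bp windows outside combined peaks that touched a replicate 2 peak was 15.6% in the autosomal centres and 11.4% in the outer parts, a ratio of 1.37. Of the replicate 1 regions outside the combined list, 50.8% were shared in the centres and 37.3% in the outer parts, a ratio of 1.36. On X the ratio was 1.12 for windows (13.2% and 11.8%) and 1.19 for sharing (49.7% and 41.8%). The part of this coverage in the central excess of the members was not tested.

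On X the central excess of the members over the unshared regions was smaller. The central part held 36.5% of the X members (34.2 to 38.9), 33.8% of the combined peaks (31.1 to 36.5) and 29.6% of the unshared regions of replicate 1 (27.6 to 31.6). The difference from the unshared regions was 6.98 points (Fisher's exact test, p = 9.04e-06). It was 1.76 points (exact p = 0.519) in the better-numbered 50% and -0.00721 points (exact p = 1) with replicate 2 coordinates. The difference from the combined list was 2.77 points and did not pass (exact p = 0.133). Whether X and the autosomes differed was tested with Zelen's exact test of equal odds ratios. The odds of a central position for members against unshared regions were 1.73 times on the autosomes and 1.37 times on X (exact adjusted p = 0.00506). Against combined peaks the ratios were 0.909 and 1.13 (exact adjusted p = 0.0131). These tests pooled the autosomes, whose excess over the unshared regions ranged from 8.21 points on chromosome III to 18.7 on V. They count regions, so they cannot tell a trait of X from variation between chromosomes.

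On X the members were densest left of the midpoint, while combined peaks were nearly equally dense in parts on either side of it. The members were densest in parts 3 and 4 of 10, at 116 per Mb each. Combined peaks had 85.8 per Mb in part 9, 84.7 in part 8 and 83.5 in part 4. Left of the midpoint lay 53.9% of the X members (51.4 to 56.3), 47.4% of the combined peaks (44.5 to 50.2) and 51% of the unshared regions of replicate 1 (48.8 to 53.2). On chromosome II these shares were 42.3%, 41.3% and 47%, and on chromosome III 45.5%, 46% and 50.2%. This division was chosen after the densities had been seen, so the shares are given without a test.

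The members lay close to combined peaks. The gap to the nearest combined peak, counted between edges, had a median of 2172 bp (interquartile range 908 to 5049 bp) for the members and 4917 bp (1765 to 12610 bp) for the unshared regions of replicate 1. Within 1 kb of a combined peak lay 2670 members, 27.6% (exact interval 26.7 to 28.5), against 14.8% (14.2 to 15.4) of the unshared regions (Fisher's exact test, p = 2.78e-124). Within 5 kb the shares were 74.8% and 50.5%, and within 10 kb 87.3% and 69.2%. Both classes lie outside combined peaks by definition, but they are divided by overlap with replicate 2, whose peaks were also denser near combined peaks. Windows of 384 bp touched a replicate 2 peak in 32% of cases at gaps up to 500 bp and in 1.64% beyond 50000 bp. The part of this coverage in the difference was not tested. With replicate 2 coordinates the difference within 1 kb was 4.87 points (27.7% against 22.9%, exact p = 4.00e-14), against 12.8 points in replicate 1.

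The closeness held on each chromosome and in each part. The median gap of the members ran from 1859 bp on X to 2505 bp on chromosome I, and that of the unshared regions from 3941 bp on X to 6500 bp on V. In the autosomal centres, 29.9% of members and 19.9% of unshared regions lay within 1 kb. In the outer parts of the autosomes these shares were 25% and 12.1%, and on X 30.1% and 16.8%. Fisher's exact tests within these 3 parts gave p-values of 6.85e-21, 9.56e-76 and 2.91e-21. Division into parts does not remove the dependence on replicate 2 coverage near combined peaks. The tests within parts were not repeated with replicate 2 coordinates.

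Seen from the other side, the portion of replicate 1 regions that were shared fell with distance from the combined list. It was 55.1% (53 to 57.1) at gaps up to 500 bp, 60.3% (58.3 to 62.2) from there to 1000 bp and 47% (45.7 to 48.3) between 2000 and 5000 bp. It was 25.3% (23.7 to 26.9) between 10000 and 20000 bp and 13.1% (10.5 to 16.1) beyond 50000 bp, where 77 of 589 regions were members. The windows touching a replicate 2 peak fell faster, from 34.6% between 500 and 1000 bp to 1.64% beyond 50000 bp. Sharing was 1.74 times the window value in the first of these classes and 7.98 times in the last. Replicate 1 regions far from the combined list were also lower in the ranking, with a median number of 20819 beyond 50000 bp against 15448 up to 500 bp. The part of each in the fall was not tested.

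**Figure D4:**
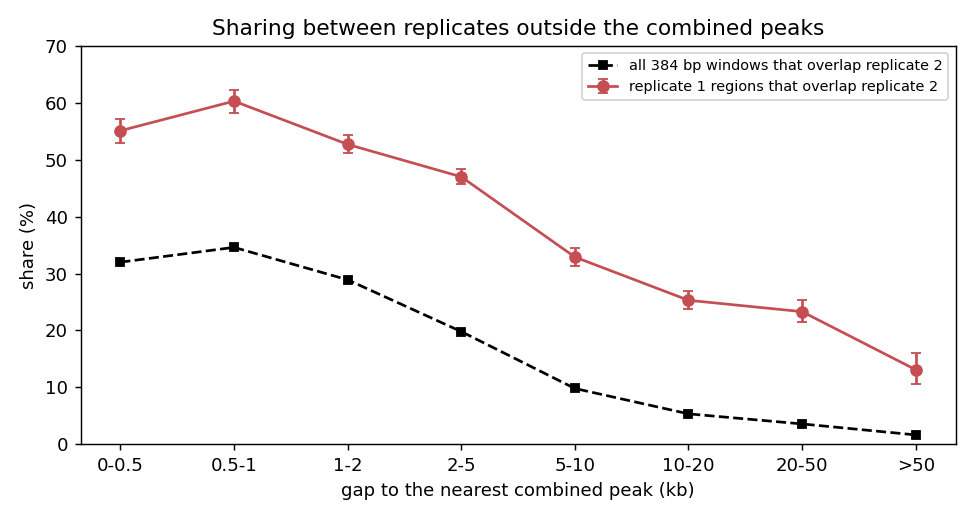
Share of replicate 1 regions outside the combined list that overlap replicate 2 (circles, with exact 95% intervals) and of all 384 bp windows that do (squares), by the gap to the nearest combined peak (x axis, kb). Sharing falls from 60.3% at 0.5 to 1 kb to 13.1% beyond 50 kb, and window coverage from 34.6% to 1.64%.

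The combined peaks were also grouped by their own peak number. The score of the combined list is constant, so whether a low number there goes with strength could not be checked. A member lay within 1 kb of 33.1% of the combined peaks in the lowest-numbered of 4 nearly equal groups, and the next groups had 36%, 36.7% and 41.4%. For unshared regions of replicate 1 the corresponding shares were 28.3%, 29.3%, 31.2% and 31.8%. These values are given without a test.

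Members far from any combined peak were rare, with 77 beyond 50 kb. The farthest lay on the left part of chromosome II, from 2204072 to 2204455 (numbers 14411 and 11595), 137572 bp from the nearest combined peak. The next were on the same stretch, from 2215795 to 2216178 (numbers 19398 and 19222), from 2219922 to 2220305 (6829 and 11915) and from 2222437 to 2222820 (12854 and 18354). Their gaps were 125849, 121722 and 119207 bp. The fifth was near the right end of chromosome V, from 20122664 to 20123047 (numbers 16512 and 7125), with a gap of 116600 bp. On chromosomes III and X no member was farther than 54776 and 55257 bp from a combined peak.

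Position went with strength inside the members, as it also did in the unshared regions described below. They were divided into 4 groups of nearly equal size by replicate 1 number. In the best group, numbers 877 to 9490, 46.7% of autosomal members were central (44.4 to 48.9). The next groups had 42%, 38.8% and 37.9% (35.8 to 40.1 in the last). The best and last groups differed by 8.72 points (Fisher's exact test, p = 2.24e-08). The median gap to a combined peak grew over the same groups from 1845 to 2079, 2289 and 2484 bp. The X members showed no such order in their central share, which was 36.8%, 35.1%, 37% and 37.3%. The median distance between replicate centres widened from 104 bp in the best group to 148 bp in the last.

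The contrast with unshared regions was also measured within groups of peak number. These groups are wide, with numbers 359 to 12022 in the best, so strength was matched only roughly. The 22891 replicate 1 regions outside the combined list were divided into 4 groups by number, a division added after the first results. The shared portion fell from 63.9% in the best group to 28.4% in the last. Within the best group, 45.5% of autosomal members and 39.1% of unshared regions were central (Fisher's exact test, p = 1.71e-05). In the last group these were 37.7% and 25.3% (exact p = 3.37e-17). Members within 1 kb of a combined peak were 30.3% against 22.1% of unshared regions in the best group and 23.6% against 11.9% in the last. The members were higher in all 4 groups for both measures. Replicate 2 coverage, which was higher in the autosomal centres and near combined peaks, was not matched in these groups. The central share of the unshared regions also fell over these groups, from 39.1% to 25.3%, so the order by number was not particular to the members.

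**Figure D5:**
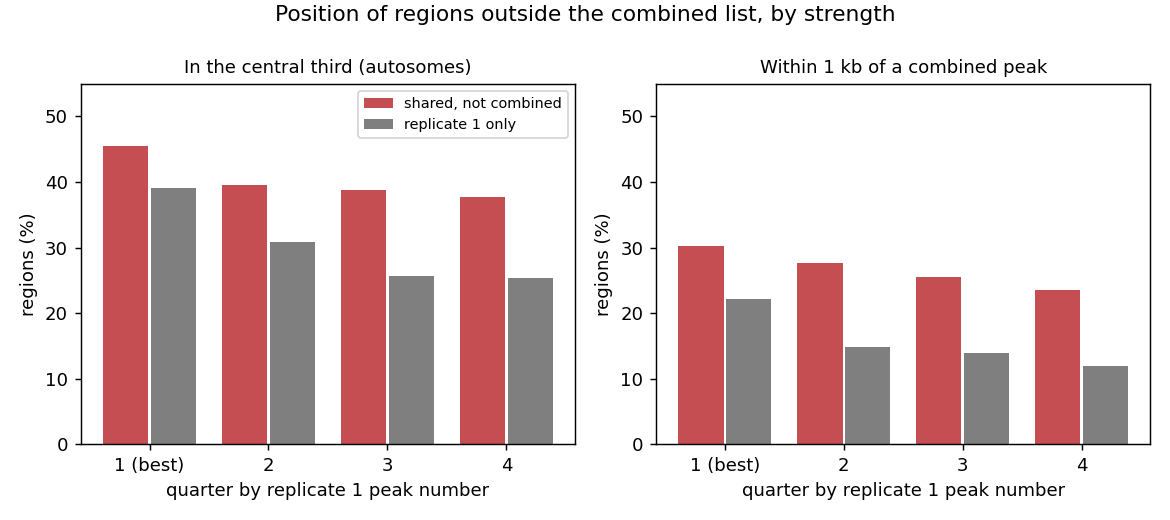
Share of regions (y axis, %) in the central part of the autosomes (left) and within 1 kb of a combined peak (right), in 4 groups of replicate 1 regions by peak number (x axis), for shared, uncombined regions and regions of replicate 1 only. The shared regions are higher in each group, from 45.5% against 39.1% to 37.7% against 25.3% in the left panel.

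The members were clustered among themselves. The median distance between neighbouring centres was 2347 bp, with an interquartile range of 754 to 8515 bp. For the unshared regions it was 3820 bp (1515 to 8900 bp). Another member lay within 1 kb of 5811 members (60%), against 40.5% of the unshared regions with one of their own class. Overlapping another member was seen for 2748 (28.4%), a share not computed for the other classes. Neighbouring regions could meet the rule through the same replicate 2 peak, and the part of this in the clustering was not tested. Joined at gaps up to 1 kb, the members formed 6008 runs, of which 3874 held 1 member, 810 held 3 or more and the longest held 14. The members therefore stand for fewer separate places than their number.

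The fullest 20 kb windows held 15 to 19 members. The fullest was on chromosome II from 13281233 to 13301232, with 19 members, 3 combined peaks and 1 region of replicate 1 only. Chromosome III had 18 members and 8 combined peaks from 7719741 to 7739740. Windows with 17 members lay on chromosome I from 1258121 to 1278120 (6 combined peaks), chromosome IV from 7832229 to 7852228 (2) and chromosome V from 20660397 to 20680396 (7). The fullest on X, from 3085262 to 3105261, held 15 members and 3 combined peaks. The best member in any of the 6 windows was number 2980 in replicate 1, in the window on chromosome IV.

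At the scale of 1 Mb the members followed the combined list. Over 97 complete bins, counts of members and combined peaks had a Spearman rho of 0.826, and counts of members and of unshared replicate 1 regions a rho of 0.288. Combined peaks and unshared regions had a rho of 0.0955. The bins share the same libraries, and members and unshared regions come from 1 list. A bin held 18 to 171 members, with a median of 98. The fewest were on chromosome V from 17000001 to 18000000, with 8 combined peaks and 99 unshared regions, and the most on chromosome III from 5000001 to 6000000, with 118 combined peaks and 176 unshared regions.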

How the data were processed

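Positions, peak numbers and a score per peak were taken from the lists that the authors deposited for 2 ChIP replicates and from 1 combined list. Per the file headers, positions are on build WS220, and the source field that the authors deposited with each peak says that peaks came from SPP followed by the irreproducible discovery rate (IDR) procedure. How the lists were combined, the depth, and the versions and settings of the tools were not given in the sources used here. The score scale is not stated, and scores were used only to describe peaks within a list. The lists held 30000, 25173 and 6178 rows. From replicate 1, 28 mitochondrial rows and 9 repeated coordinates were dropped.

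Overlap meant at least 1 bp. Where several replicate 2 peaks overlapped a member, the one with the longest overlap gave its partner number and score. The length of each chromosome was set to the largest end position in any of the 3 lists, since WS220 lengths were not used here. Shares have exact (Clopper-Pearson) 95% intervals, which cover counting error only. Shares were compared with Fisher's exact test, two-sided, with Benjamini-Hochberg adjustment over 12 tests for chromosomes, over the 6 chromosomes for the central part and over 2 of Zelen's exact tests. The members, lists and tests were chosen with earlier results of these data known. The rule for named regions was the 10 best by the worse number, the 5 farthest from combined peaks, the fullest 20 kb window per chromosome and the regions at the threshold. Genes were not named for want of a WS220 annotation. The overlap, gap and central-part calculations were tested on simulated lists. Columns of values that matched no sample numbered 0. Software was scipy 1.17.1, pandas 2.3.3, numpy 2.4.6 and matplotlib 3.10.9 under Python 3.11.15. Alternatives were stricter overlap, a 1 kb exclusion, replicate 2 coordinates, the better-numbered 50%, 1 region per run, either replicate left out and a wider central part.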

Additional observations from a re-analysis of the deposited data

Results flagged for a closer look

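All 18 distinct mitochondrial regions of replicate 1 overlapped a replicate 2 peak and no combined peak, on a molecule that the comparisons left out, with a best peak number of 9 in replicate 1. The combined list held 0 mitochondrial peaks, so the lack of a combined overlap was fixed in advance. No background of windows is given for this molecule, so the sharing there is a description only.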

How the results depend on the processing

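Calls under the alternatives rest on unadjusted p-values. Of 88 alternatives over 9 results, 75 left the direction and the call as they were, or the count within 1.5 times. The number of members was 6219 with reciprocal 50% overlap, 4190 with centres within 100 bp, 2671 in the better-numbered 50% of each list and 6008 with 1 region per run, each of which is smaller by construction. Leaving out a replicate removes the requirement of sharing, and gave 18255 to 22891 regions. The autosomal central share minus that of the combined list was 2.15 points in the better-numbered 50%, and -9.57 to -2.9 points with a replicate left out. On X the same difference was 3.94 points (exact p = 0.0481) with no combined peak within 1 kb, and -1.11 to 2.32 points with a replicate left out. Against replicate 1 only, the X central share differed by 1.76 points in the better-numbered 50% and by -0.00721 points with replicate 2 coordinates, and the share on X by 0.849 and -0.448 points. For these the cause was not tested. The autosomal central share against replicate 1 only (2.11 to 16.4 points over 12 alternatives) and the share within 1 kb (4.87 to 13.4 points over 13) kept their direction and call throughout, smallest with replicate 2 coordinates. No paired analysis was possible because peak lists give no model to block and Input was not analysed here. Since depth is unknown, a region missing from a list may still be bound.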
